A study of Homo sapiens with 9 samples.

Results

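Of the genes that build the laminin network of the epithelial basement membrane and anchor it, 9 were followed: LAMA3 and LAMA5 for alpha chains, LAMB1, LAMB2 and LAMB3 for beta chains, LAMC1 for a gamma chain, and NID1, HSPG2 and AGRN for the linker proteins nidogen 1, perlecan and agrin. They were taken by gene symbol, and all 9 were among the 56609 symbols of the expression table. RNA came from 3 samples per group of MCF10A, a human mammary epithelial line that does not form tumours. The high calcium group had received 10 mM calcium with ionomycin, a calcium ionophore given at 1 mM as labelled, for 16 h. The TGFb3 group had received 10 nM transforming growth factor beta 3 for 16 h, and the control group was untreated. All 3 groups grew in the same medium with horse serum, EGF, hydrocortisone, cholera toxin and insulin. Calcium and ionomycin were given together, so their parts cannot be told apart. Separate cultures are not mentioned in the labels; the spread behind each p-value is that of the samples as sequenced and may be technical.

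Laminins are secreted heterotrimers of an alpha, a beta and a gamma chain that assemble in the endoplasmic reticulum before they leave the cell. LAMA3 and LAMB3 encode the alpha and beta chains of the hemidesmosomal laminin, which anchors basal epithelial cells to the basement membrane, whereas LAMB1, LAMB2 and LAMC1 encode chains of the laminins that polymerise into the sheet of the basement membrane, with LAMA5 as a common epithelial alpha chain. Nidogen and perlecan join the laminin sheet to type IV collagen, and agrin joins laminin to cell surface receptors such as dystroglycan.

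Values are TPM, a transcript abundance that is scaled by gene length and can be compared between genes. Each sample sums to 1000000 and the sequencing depth is unknown. Sample correlations of log2(TPM + 1) across genes, which are not independent replicates, were 0.987 to 0.991 within groups and 0.926 to 0.944 between groups. Mitochondrially encoded RNA took 11.5 ± 0.371% of TPM in high calcium, 22.7 ± 0.588% in TGFb3 and 22.7 ± 0.914% in the controls (SD, n = 3 each). The nuclear RNA MALAT1 stood at 424 ± 32.2 TPM in high calcium, 204 ± 12.4 TPM in TGFb3 and 158 ± 44.7 TPM in the controls. The part of these shifts in the results below was not tested. All 8 epithelial markers, keratins and E-cadherin among them, were above 1 TPM in each group. Their summed level was 6871 to 7098 TPM in high calcium, 4215 to 4880 TPM in TGFb3 and 3419 to 3648 TPM in the controls. In high calcium each of the 8 was above the controls without overlap. EPCAM stood at 397 ± 10.4 TPM in high calcium and 118 ± 5.87 TPM in TGFb3, against 294 ± 15.4 TPM in the controls. KRT18 was also lower in TGFb3 than in the controls (235 and 335 TPM). CDH1 (182 and 94.3 TPM), KRT17 (2453 and 1285 TPM) and KRT8 (283 and 189 TPM) were higher in TGFb3 than in the controls. So were KRT14 (20.2 and 7.55 TPM) and TP63 (72.9 and 50.2 TPM), while KRT5 overlapped the controls (1168 and 1252 TPM). The part of these marker levels, and of those that follow, in the results was not tested. The summed level of 7 fibroblast markers was 9.99 to 12.6 TPM in high calcium, 28.5 to 32.0 TPM in TGFb3 and 2.60 to 3.52 TPM in the controls, with COL1A2 at 0 throughout. Most of that sum was COL1A1 (means of 2.63, 15.6 and 0.800 TPM in the same order) and DCN (7.9, 13.9 and 2.32 TPM). Of 5 endothelial markers the sum was at most 12.6 TPM, with CDH5 at 0 throughout. Of 4 immune markers, whose sum of 13.9 to 37.3 TPM in high calcium, 8.44 to 13.6 TPM in TGFb3 and 1.45 to 3.00 TPM in the controls was nearly all CD68, PTPRC and CD3E were at 0 throughout. The sum of 5 smooth muscle markers was at most 14.9 TPM and that of 5 Schwann cell and muscle markers at most 0.287 TPM.

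Differences were tested as log2(TPM + 1) with limma over 13968 symbols (mean 1 TPM or more), and a gene was called at an adjusted p under 0.05. Of the 9 members 8 passed that filter, NID1 being listed at 0 in all 9 samples. In high calcium against control, 5 of 8 members were called higher and 0 lower, where 63.1% of all tested genes were called, 46.1% higher and 17.0% lower. Median ratio rescaling left 4 members higher and 2 lower, and the share of calls over all genes that were higher was 50.4%, with 73.0% as deposited. In TGFb3 against control, 5 members were called higher and 1 lower, where 59.6% of tested genes were called, 26.5% higher and 33.1% lower. In high calcium against TGFb3, 2 members were called higher and 3 lower, where 66.5% of tested genes were called, 50.4% higher and 16.2% lower; after median ratio rescaling 1 was higher and 4 lower. The median log2 difference of the 8 members was 0.57 in high calcium against control and 0.65 in TGFb3 against control, with 0.22 and -0.06 for all tested genes in the same order. Both comparisons share the control samples. Because of the shift of 0.22 over all genes, the high calcium differences of the 8 members are also given relative to it.

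**Figure D1:**
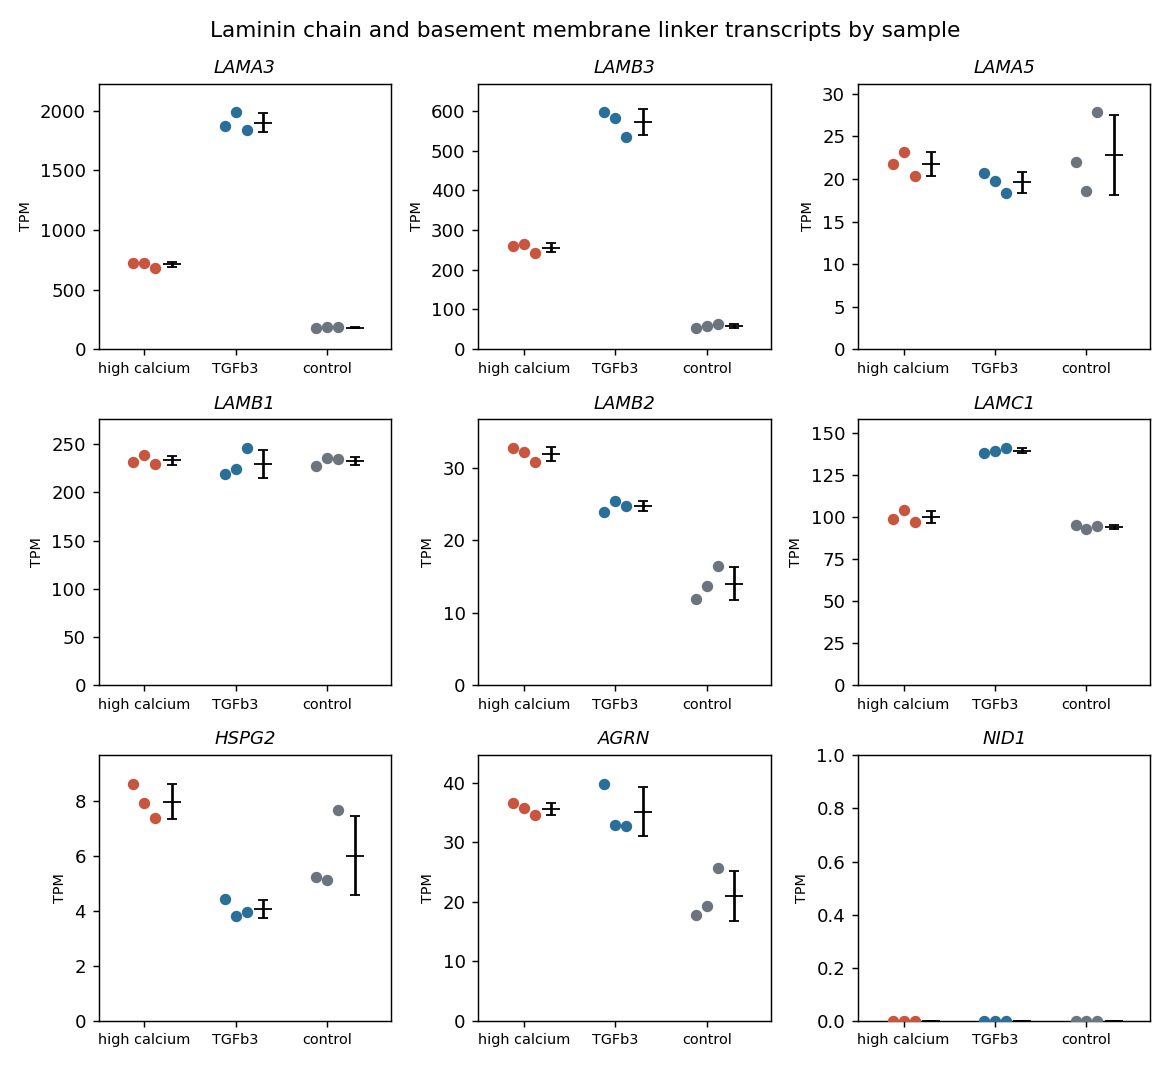
TPM of the 9 genes in each sample, with points for the 3 samples of high calcium, TGFb3 and control and a bar for the mean ± SD beside each group; each panel has its own vertical axis from 0. LAMA3 and LAMB3 were highest in TGFb3 and intermediate in high calcium, LAMB1 stayed between 219 and 246 TPM in all samples, and NID1 was listed at 0.

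LAMA3 encodes the alpha 3 chain, the part of the hemidesmosomal laminin that integrins bind. Its level was 721, 725 and 684 TPM in the high calcium samples and 1872, 1987 and 1835 TPM in the TGFb3 samples, against 175, 187 and 182 TPM in the controls. No sample of any group overlapped another group, and TGFb3 stood above high calcium. The mean level was 3.92 times the control in high calcium and 10.5 times the control in TGFb3. By limma the log2 difference from control was 1.96 ± 0.044 (SE) in high calcium (adjusted p = 5.4e-10), or 1.74 relative to the median gene, and 3.38 ± 0.044 in TGFb3 (adjusted p = 1.2e-11). In TGFb3 only 34 of the 13968 tested genes had a higher log2 difference, and in high calcium 241 had. Among tested genes the mean level of LAMA3 was above 98.7% in high calcium, 99.6% in TGFb3 and 94.8% in the controls. The gene spans 23689443 to 23956222 on the plus strand of chromosome 18 (hg38).

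LAMB3 encodes the beta 3 chain, its partner in the hemidesmosomal laminin. It was at 259, 266 and 242 TPM in high calcium and at 597, 581 and 534 TPM in TGFb3, against 52.8, 58.6 and 63.2 TPM in the controls. The order of the groups was that of LAMA3, again with no overlap. The mean was 4.40 times the control in high calcium (log2 difference 2.12 ± 0.068, adjusted p = 5.6e-09 by limma) and 9.81 times the control in TGFb3 (3.27 ± 0.068, adjusted p = 3.7e-10). Relative to the median gene the high calcium difference was 1.90. The gene lies on the minus strand of chromosome 1 at 209614870 to 209652466, where the annotation places MIR4260 inside it on the same strand.

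LAMA3 and LAMB3 moved together in level. Sequences before their start sites are shown beside that of LAMB1, which was called in neither treatment as deposited. After median ratio rescaling LAMB1 was called lower in high calcium (log2 difference -0.24). The part of these sequences in the levels was not tested. The windows are RefSeq's (GRCh38.p14), with 250 bases before and 50 after a start, 5′ to 3′ on the gene's strand. Capitals mark TGANTCA, the sequence that AP-1 transcription factors bind, which reads the same on both strands.
LAMA3 (chr18:23872770-23873069, plus strand): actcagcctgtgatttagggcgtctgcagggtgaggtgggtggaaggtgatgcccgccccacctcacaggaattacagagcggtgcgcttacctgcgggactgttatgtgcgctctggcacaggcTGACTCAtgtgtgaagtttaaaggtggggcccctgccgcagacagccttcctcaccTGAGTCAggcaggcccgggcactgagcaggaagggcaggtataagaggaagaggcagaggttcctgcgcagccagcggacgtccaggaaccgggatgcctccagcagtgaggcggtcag
LAMB3 (chr1:209651325-209651624, minus strand): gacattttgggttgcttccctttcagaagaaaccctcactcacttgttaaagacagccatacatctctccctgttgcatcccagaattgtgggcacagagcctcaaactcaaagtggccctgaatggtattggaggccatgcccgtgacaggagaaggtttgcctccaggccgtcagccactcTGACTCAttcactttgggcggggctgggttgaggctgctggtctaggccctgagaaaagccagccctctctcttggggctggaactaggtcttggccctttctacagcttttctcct
LAMB1 (chr7:108003112-108003411, minus strand): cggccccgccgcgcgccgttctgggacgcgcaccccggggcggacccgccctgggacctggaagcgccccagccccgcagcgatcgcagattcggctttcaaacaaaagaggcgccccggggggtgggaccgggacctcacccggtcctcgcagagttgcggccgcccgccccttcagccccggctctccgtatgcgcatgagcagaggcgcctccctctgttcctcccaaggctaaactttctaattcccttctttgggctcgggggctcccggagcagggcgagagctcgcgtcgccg

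The LAMA3 window belongs to an internal start, 183577 bases from the outermost annotated one, of the kind known to give the shorter alpha 3 chain. It held TGACTCA with its first base at position -125 from the start and TGAGTCA at -69. RefSeq gave LAMB3 3 windows, and the one shown held TGACTCA at -67 while the other 2 held no match. Of 10 windows for 8 members, 2 held TGANTCA, as did 7.71% of all 35116 windows. No window was given for AGRN. Members without a match included LAMB2, called higher in both treatments, and LAMC1, called higher in TGFb3. The SMAD sequence CAGAC, on either strand, was present in 5 of the 10 windows, those of LAMA3 (at -229 and -87), LAMA5, LAMB2, LAMC1 and HSPG2, and in 45.3% of all windows, and the GC box GGGCGG, on either strand, in 45.0% of all windows, including all 10 of the members. None of these matches overlapped the AP-1 matches shown. The 2 LAMB3 windows not shown overlap each other and share their GC box, so they are not separate sequences in these counts. A match is a run of letters and not a measured site. Gene-level TPM does not tell which of the 15 annotated starts of LAMA3 or the 5 of LAMB3 was used.

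Of 5 other laminin chain genes covered here, 1 passed the filter: LAMA1, for the alpha 1 chain, named after its values were seen. It was low, at 2.27 ± 0.134 TPM in high calcium and 1.53 ± 0.281 TPM in TGFb3, against 0.939 ± 0.237 TPM in the controls. With a control mean under 1 TPM it passed the filter through the treated groups, so no test of it is given.

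The makeup of the laminin chain transcripts differed between the groups. LAMB3 held 49.1 ± 0.755% of the summed TPM of the 3 beta chains in high calcium and 69.1 ± 2.49% in TGFb3, against 19.1 ± 1.00% in the controls (SD, n = 3 each). The remainder was mostly LAMB1, with 44.8 ± 0.756% in high calcium, 27.9 ± 2.39% in TGFb3 and 76.4 ± 1.57% in the controls. Among alpha chains, LAMA3 made up 97.0 ± 0.109% of LAMA3 plus LAMA5 in high calcium, 99.0 ± 0.0635% in TGFb3 and 88.9 ± 2.11% in the controls. The ratio of LAMA3 to LAMB3 was 2.78 ± 0.0473 in high calcium, 3.33 ± 0.169 in TGFb3 and 3.13 ± 0.222 in the controls. Every high calcium sample was below every sample of the other groups. Over 24 comparisons of 8 measures (these, the other shares and the summed level given below), the exact two-sided permutation p was 0.1 in 23, the smallest that 3 samples against 3 can give (adjusted p = 0.104). The exception was the LAMA3 to LAMB3 ratio in TGFb3 against control (exact permutation p = 0.3). These measures overlap: the beta chain shares are parts of the same whole, as are the linker shares. LAMA3 and LAMB3 also enter several of them, so the 23 are not separate results.

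**Figure D2:**
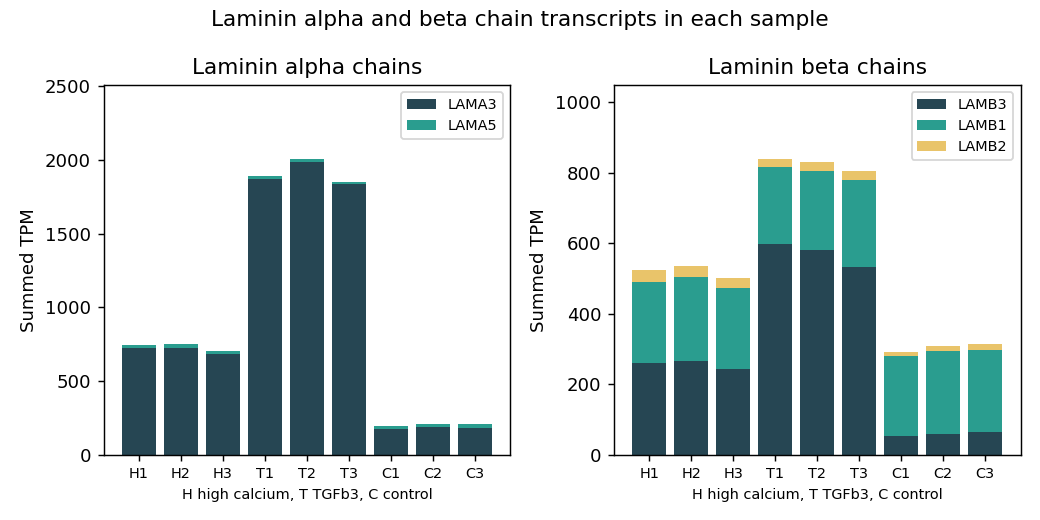
Stacked TPM of the laminin alpha and beta chain genes in each of the 9 samples (H high calcium, T TGFb3, C control; numbers are replicates), each panel on its own axis from 0. LAMB3 made up 69.1% of beta chain TPM in TGFb3, 49.1% in high calcium and 19.1% in the controls.

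LAMB1, the beta 1 chain of the sheet-forming laminins, did not move with LAMB3. Its level was 232, 238 and 229.5 TPM in high calcium and 219, 224 and 246 TPM in TGFb3, against 228, 236 and 235 TPM in the controls, and the ranges overlapped. The log2 difference was 0.00 in high calcium (95% interval -0.10 to 0.11, adjusted p = 0.95 by limma) and -0.02 in TGFb3 (-0.12 to 0.08, adjusted p = 0.73). Relative to the median gene the high calcium difference was -0.22, and LAMB1 was called lower in high calcium after median ratio rescaling (-0.24), after quantile normalisation (-0.12) and with mitochondrial genes left out (-0.19). DLD and AC005046.1 overlap LAMB1 on the other strand, and DLD averaged 139 TPM in high calcium, 102 TPM in TGFb3 and 123 TPM in the controls. Whether the counting used strand is not given in the sources used here.

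LAMB2, the beta 2 chain, was lower in level than LAMB1 and rose in both treatments. It stood at 32.8, 32.2 and 30.8 TPM in high calcium and 23.9, 25.4 and 24.8 TPM in TGFb3, against 11.9, 13.7 and 16.4 TPM in the controls, with no overlap. The mean was 2.28 times the control in high calcium (log2 difference 1.14 ± 0.095, adjusted p = 3.4e-06 by limma, 0.92 relative to the median gene) and 1.76 times the control in TGFb3 (0.79 ± 0.095, adjusted p = 5.1e-05). LAMB2 stood in the order high calcium, TGFb3, control. Its log2 difference of high calcium against TGFb3 was 0.36 ± 0.095 (adjusted p = 0.0074), but 0.08, 0.11 and 0.17 and not called after median ratio rescaling, after quantile normalisation and with mitochondrial genes left out.

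LAMC1 encodes gamma 1, the gamma chain of most sheet-forming laminins. It was at 98.5, 104 and 97.3 TPM in high calcium and at 138, 139 and 141 TPM in TGFb3, against 95.2, 93.0 and 94.7 TPM in the controls. TGFb3 samples lay above all others, at 1.48 times the control mean (log2 difference 0.56 ± 0.038, adjusted p = 8.2e-07 by limma). High calcium was also above every control, at 1.06 times the mean, but was not called (0.08 ± 0.038, adjusted p = 0.077, -0.14 relative to the median gene). Under the 3 other scalings that difference turned negative, at -0.15 (called), -0.09 (not called) and -0.11 (called), for median ratio, for quantile and without mitochondrial genes.

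LAMA5, the alpha 5 chain, was at 21.8, 23.2 and 20.4 TPM in high calcium and at 20.7, 19.7 and 18.3 TPM in TGFb3, against 22.0, 18.5 and 27.9 TPM in the controls. The ranges overlapped, and the controls alone spanned more than both treatments. The log2 difference was -0.05 in high calcium (95% interval -0.32 to 0.23, adjusted p = 0.77 by limma), or -0.27 relative to the median gene, and -0.19 in TGFb3 (-0.47 to 0.08, adjusted p = 0.21). In high calcium it was -0.28 after median ratio rescaling, -0.27 after quantile normalisation and -0.23 without mitochondrial genes, not called in any (adjusted p = 0.065, 0.065 and 0.14). Without control 2 the TGFb3 difference was -0.32 and called (adjusted p = 0.029), and without control 3 the high calcium difference was 0.10 and not called. ADRM1, on the other strand, overlaps LAMA5 and was at a higher level, with 74.5 TPM in high calcium, 60.9 TPM in TGFb3 and 80.7 TPM in the controls.

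**Figure D3:**
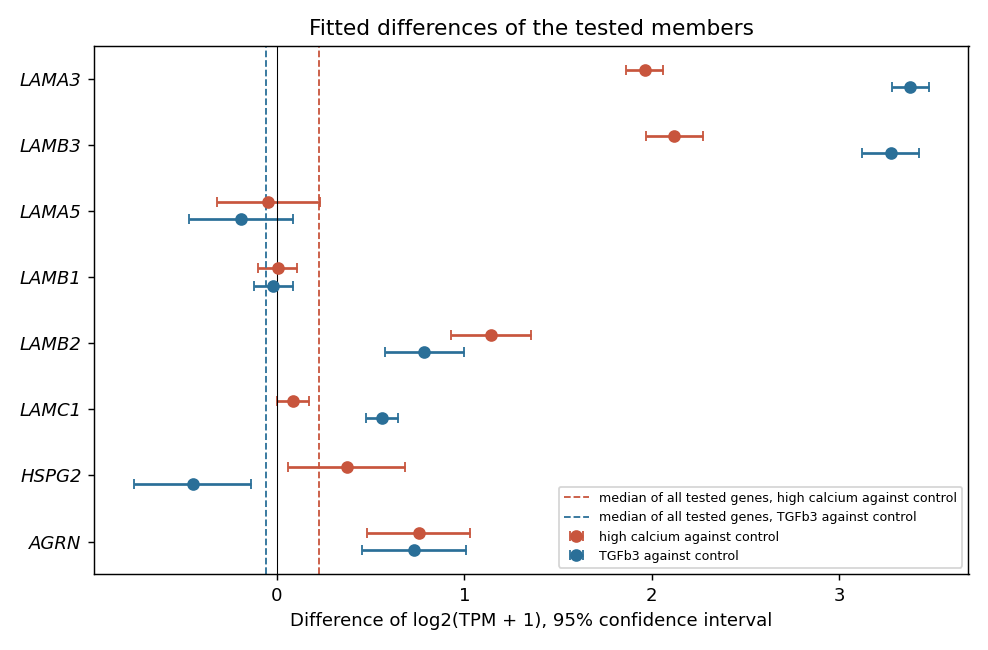
Fitted differences of log2(TPM + 1) from control for the 8 tested genes, with 95% confidence intervals (points), in high calcium and TGFb3; dashed lines give the median of all 13968 tested genes in each comparison (0.22 and -0.06). The intervals of LAMA3 and LAMB3 lie far to the right of both lines, and HSPG2 is to the right of 0 in high calcium and to the left in TGFb3.

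The linker genes went separate ways. AGRN, for the heparan sulfate proteoglycan agrin, was at 36.6, 35.7 and 34.6 TPM in high calcium and at 39.8, 32.9 and 32.6 TPM in TGFb3, against 17.8, 19.2 and 25.8 TPM in the controls. Neither treatment overlapped the controls, and the treatments overlapped each other. The mean was 1.70 times the control in high calcium (log2 difference 0.76 ± 0.12, adjusted p = 0.00041 by limma, 0.53 relative to the median gene) and 1.68 times the control in TGFb3 (0.73 ± 0.12, adjusted p = 0.00054). Between the treatments (high calcium against TGFb3) the difference was 0.03, with a 95% interval of -0.25 to 0.30 (adjusted p = 0.87). The median of all tested genes in that comparison was 0.27, and AGRN was at -0.24 relative to it. After median ratio rescaling the AGRN difference was -0.26 and not called (adjusted p = 0.076 by limma).

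HSPG2, for perlecan, was the least abundant of the detected members. It was at 8.63, 7.94 and 7.37 TPM in high calcium and 4.43, 3.81 and 3.98 TPM in TGFb3, against 5.23, 5.13 and 7.66 TPM in the controls. TGFb3 samples lay below every other sample, while high calcium overlapped control 3. HSPG2 was called lower in TGFb3 (log2 difference -0.45 ± 0.14, adjusted p = 0.018 by limma) and higher in high calcium (0.37 ± 0.14, adjusted p = 0.039, 0.15 relative to the median gene). The high calcium call was lost under the 3 other scalings (0.16, 0.03 and 0.21 in the same order), with no filter on low values, when the fit held the compared groups alone, and without high calcium 1 or 2 or control 1 or 2 (adjusted p = 0.12, 0.081, 0.13 and 0.14). The TGFb3 call was lost without TGFb3 2 (adjusted p = 0.056), and the difference was -0.29 without control 3. High calcium against TGFb3 was called under every alternative (0.82 ± 0.14, adjusted p = 0.00047, range 0.52 to 0.95). Perlecan made up 18.3 ± 0.752% of the summed linker TPM in high calcium, 10.4 ± 0.428% in TGFb3 and 22.2 ± 1.02% in the controls, and agrin the rest.

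NID1, for nidogen 1, was listed at 0 in all 9 samples, and 10 widely expressed genes looked at beside it were above 0 in every sample. NID2, for the related nidogen 2, was listed at 0 in all samples except 0.0290 TPM in high calcium 3.

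Set directly against TGFb3, high calcium had lower levels of LAMA3 (log2 difference -1.42 ± 0.044, adjusted p = 3.7e-09 by limma), LAMB3 (-1.15 ± 0.068, adjusted p = 2.8e-07) and LAMC1 (-0.48 ± 0.038, adjusted p = 2.3e-06). The mean of LAMA3 in high calcium was 0.374 times, and that of LAMB3 0.448 times, its mean in TGFb3. LAMA5 and LAMB1 were not called (0.15, 95% interval -0.13 to 0.42, and 0.02, -0.08 to 0.13). Relative to the median of all tested genes in this comparison (0.27) they were at -0.12 and -0.24. LAMB1 was called lower under the 3 other scalings (-0.26, -0.17 and -0.17). Summed over the 9 genes, the level was 1397 ± 45.3 TPM in high calcium, 2921 ± 89.1 TPM in TGFb3 and 630.3 ± 22.6 TPM in the controls. Most of the sum in both treatments was LAMA3 and LAMB3. LAMA3 averaged 710 TPM in high calcium, 1898 TPM in TGFb3 and 181 TPM in the controls. LAMB3 averaged 256, 571 and 58.2 TPM in the same order.

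For each detected member, the genes with a mean of at least 10 TPM whose log2(TPM + 1) followed it most closely over the 9 samples are given as a description; the 9 points fall into 3 groups, share their normalisation and mostly carry the differences between groups. LAMB3 was followed by MXD1 (Pearson r = 0.999), FSTL3 (0.998) and CDC42SE1 (0.998), and LAMA3 by ZXDB (0.997), LAMB3 (0.996) and MXD1 (0.996). LAMB2 was nearest to SLC35E1 (0.997), KIF3B (0.994) and SGMS2 (0.994). LAMC1 was nearest to PTPRK (0.997), ASAP2 (0.995) and FSTL1 (0.995). For AGRN these were EPS8L2 (0.991), LSS (0.991) and ARFGAP1 (0.990), and for HSPG2 BTBD2 (0.987), ZNF672 (0.986) and STK35 (0.983). LAMA5 and LAMB1, with little difference between groups, had lower values, led by HCFC1 (0.921) and NIN (0.851).

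Other genes of the basement membrane were read from lists. Of 12 tested components other than laminins, 10 were called higher and 2 lower in high calcium (8 and 2 after median ratio rescaling), and 7 higher and 2 lower in TGFb3. Over all tested genes 46.1% were called higher and 17.0% lower in high calcium, and 26.5% higher and 33.1% lower in TGFb3. The median log2 difference of these components was 0.70 in high calcium, with 0.22 for all tested genes, and 0.62 in TGFb3, with -0.06 for all. COL4A3, for a type IV collagen chain, averaged 2.17 TPM in high calcium and 0.282 TPM in TGFb3, against 0.729 TPM in the controls, and passed the filter only through high calcium, where it was bound to differ; without it 9 were higher and 2 lower in high calcium, and 7 higher and 2 lower in TGFb3 with a median of 0.85. COL4A1 and COL4A2, the chains of the collagen network that nidogen and perlecan link to laminin, stood at 16.5 ± 0.852 and 36.5 ± 2.47 TPM in high calcium and at 301 ± 9.22 and 236 ± 7.30 TPM in TGFb3, against 24.9 ± 0.993 and 42.1 ± 3.60 TPM in the controls. Both were called lower in high calcium, where COL4A2 overlapped the controls (log2 differences -0.57 and -0.20, adjusted p = 6.9e-06 and 0.026 by limma) and higher in TGFb3 (3.55 and 2.46). COL7A1, the anchoring fibril collagen that binds the hemidesmosomal laminin, was at 9.29 ± 0.170 TPM in high calcium and 33.2 ± 0.343 TPM in TGFb3, against 2.65 ± 0.502 TPM in the controls, an order like that of LAMA3 and LAMB3 (log2 differences 1.51 and 3.24, adjusted p = 5.3e-07 and 4.2e-09). NTN4, a netrin that binds laminin gamma chains and loosens the network, was highest in high calcium, at 102 ± 7.30 TPM with 32.6 ± 2.92 TPM in TGFb3, against 17.7 ± 1.10 TPM in the controls.

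Among 15 tested receptor and hemidesmosome genes, 11 were called higher and 3 lower in high calcium, but 6 higher and 4 lower after median ratio rescaling. In TGFb3 10 were higher and 3 lower. The shares over all tested genes are those just given (46.1% and 17.0% in high calcium, 26.5% and 33.1% in TGFb3). The median log2 difference was 0.27 in high calcium, close to the 0.22 of all tested genes, and 0.88 in TGFb3, with -0.06 for all. ITGB4, which pairs with ITGA6 to form the laminin receptor of hemidesmosomes, was at 123 ± 3.96 TPM in high calcium and 309 ± 10.9 TPM in TGFb3, against 66.7 ± 8.96 TPM in the controls (log2 differences 0.88 and 2.20, adjusted p = 6.6e-06 and 1.5e-08 by limma). ITGA6, named because of that pairing after its values were seen, was at 219 ± 2.15 TPM in high calcium and 547 ± 18.7 TPM in TGFb3, against 297 ± 7.88 TPM in the controls, so that it was called lower in high calcium (-0.44) and higher in TGFb3 (0.88). COL17A1, a hemidesmosomal collagen, rose in both (0.53 and 1.45). ITGA2, a collagen and laminin receptor chain, rose by 2.06 in TGFb3, and its high calcium difference of 0.27 was not called under the 3 other scalings. BCAM, a receptor for the laminin alpha 5 chain, was called lower in both treatments (-0.47 and -1.42), with high calcium overlapping the controls, at 4.02 ± 0.869 TPM in high calcium and 1.58 ± 0.0808 TPM in TGFb3, against 5.93 ± 0.959 TPM in the controls.

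Of 11 tested proteases and glycosidases that cut basement membrane proteins, 6 were called higher and 1 lower in high calcium, and 9 higher and 1 lower in TGFb3. MMP2 and MMP9 passed the filter only through TGFb3, where they were bound to differ. Without them 6 of 9 were higher and 1 lower in high calcium, and 7 higher and 1 lower in TGFb3, with median log2 differences of 0.59 and 1.38 beside 0.22 and -0.06 for all tested genes. The shares of all tested genes called higher and lower were 46.1% and 17.0% in high calcium and 26.5% and 33.1% in TGFb3. PLAU, the urokinase that activates plasminogen, was at 49.0 ± 1.15 TPM in high calcium and 438 ± 45.4 TPM in TGFb3, against 12.8 ± 0.315 TPM in the controls (log2 differences 1.86 and 4.99, adjusted p = 1.3e-08 and 1.7e-11 by limma). MMP9, a gelatinase, was listed at 0 in every high calcium and control sample and at 8.70, 8.66 and 6.05 TPM in TGFb3. MMP2, the other gelatinase, averaged 0.0724 ± 0.0239 TPM in high calcium and 5.19 ± 0.668 TPM in TGFb3, against 0.0204 ± 0.0222 TPM in the controls. TLL1, a relative of the BMP1 protease that trims laminin chains, was at 1.14 ± 0.191 TPM in high calcium and 11.9 ± 0.673 TPM in TGFb3, against 1.76 ± 0.112 TPM in the controls. Of 11 tested genes that glycosylate dystroglycan, the step that lets it bind laminin and agrin, 6 were called higher and 1 lower in high calcium (3 and 3 after median ratio rescaling), and 3 higher and 4 lower in TGFb3. These counts are near the same shares of all tested genes, and the medians were 0.39 in high calcium and 0.13 in TGFb3. In TGFb3 RXYLT1 fell to 23.1 ± 0.280 TPM, with 43.4 ± 0.836 TPM in high calcium, against 44.2 ± 1.62 TPM in the controls.

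**Figure D4:**
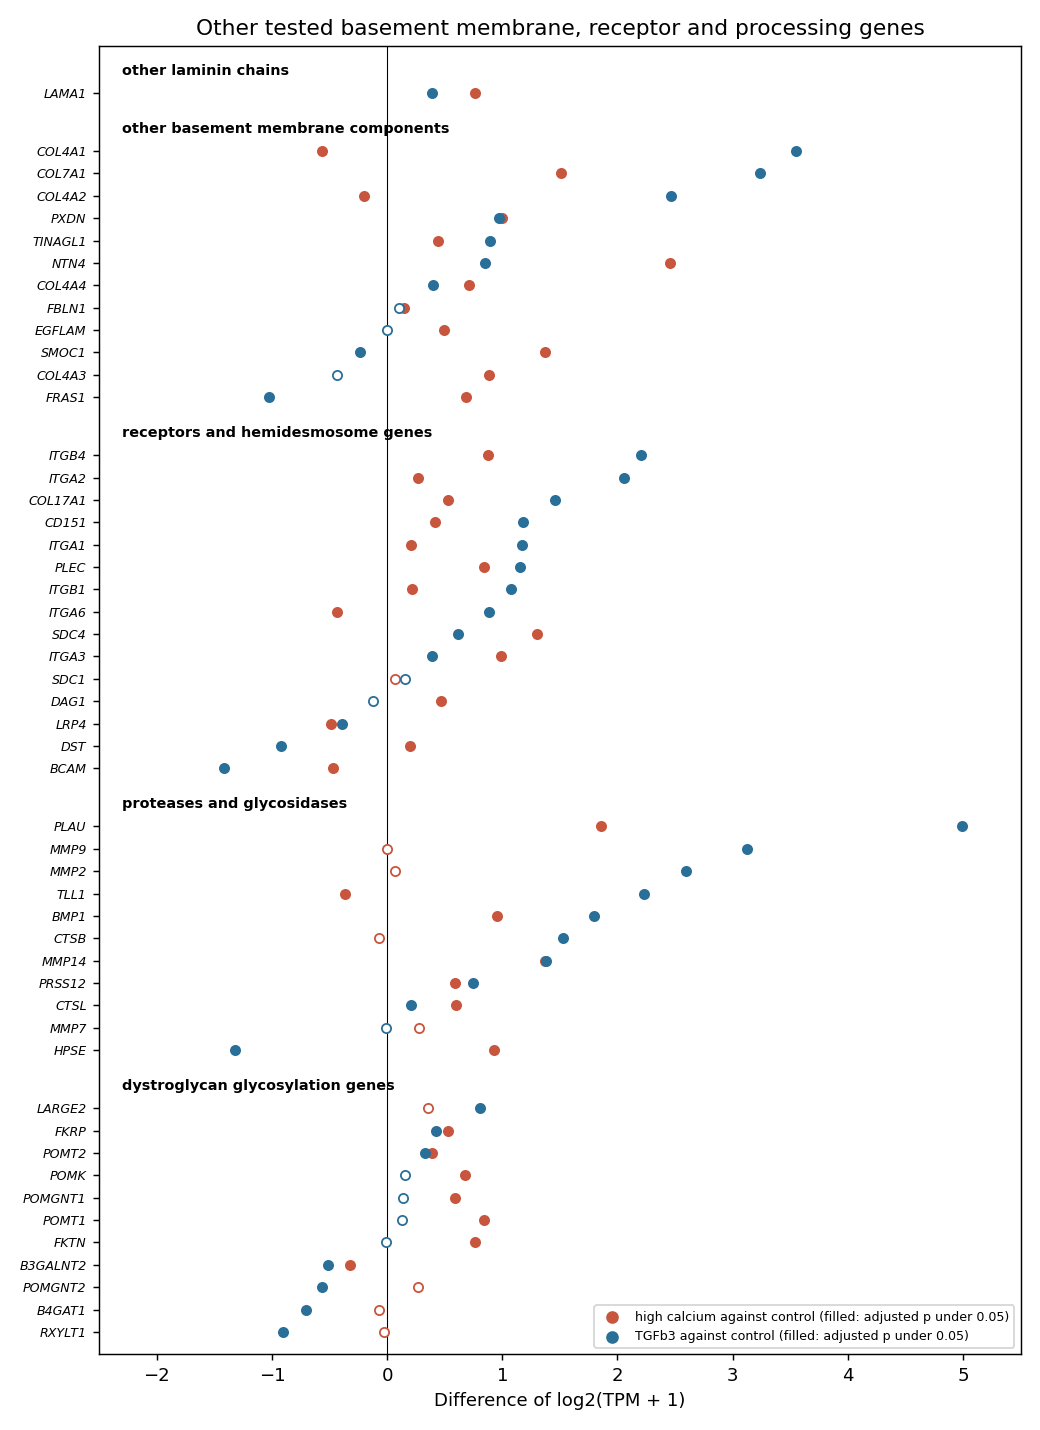
Differences of log2(TPM + 1) from control for the tested genes of the 5 lists, in high calcium and TGFb3, ordered within each list by the TGFb3 value; filled points were called at an adjusted p under 0.05. COL4A1 and COL4A2 lie left of 0 in high calcium (-0.57 and -0.20) and far to the right in TGFb3 (3.55 and 2.46). LAMA1, COL4A3, MMP2 and MMP9 averaged under 1 TPM in at least 1 group and passed the filter through the groups where they were high.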

How the data were processed

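RNA of 9 MCF10A samples was read as paired ends of 101 bp, per the labels' protocols. The submitters' processing notes name HISAT2 and hg38; no quantifier or annotation is named there. The authors deposited TPM values for 58288 annotated genes, which already are shares of 1000000 per sample, so that no counting error can be given. Each of the 9 sample columns was matched by its label, and no 2 samples had identical values. The 1932 entries sharing 253 symbols were summed. Coordinates came from GENCODE 29 (hg38), and 2 list genes were matched by Ensembl identifier because their symbols differ.

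A linear model with 3 groups was fitted to log2(TPM + 1), pseudocount 1, over symbols averaging 1 TPM or more, using limma 3.58.1 in R 4.3.3 with a variance trend, Benjamini-Hochberg adjustment and a threshold of 0.05. It was also run on simulated data with normal noise and few changed genes. That setting lacks the shift over all genes and the large share of called genes seen here. Its error rates therefore need not hold for these data. Fold changes on this scale understate those of low genes. Shares were compared by exact permutation (scipy 1.17.1). Some genes of the lists are not reported here.

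Members and lists were chosen with earlier results of these data known. The text names all members, up to 4 called genes per list with the largest difference and at least 5 TPM (not every one is described), and the 3 genes most like each member. The alternatives were other pseudocounts, filters, scalings and variance settings, the compared groups only, a replicate block and leaving out each sample.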

Additional observations from a re-analysis of the deposited data

How the results depend on the processing

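Of 456 differences of members under 19 alternatives, 417 kept direction and call. With direction kept, 14 lost the call and 1 gained it. The other 24 changed sign, none of them called in the fit reported. Some of these 24 were called with the new sign: LAMB1 and LAMC1 in high calcium against control, and LAMB1 in high calcium against TGFb3. The sign changes came with small differences. In high calcium against control these were LAMB1 and LAMC1 after median ratio rescaling (-0.24 and -0.15), quantile normalisation (-0.12 and -0.088) and with mitochondrial genes left out (-0.19 and -0.11). In TGFb3 against control LAMB1 turned to 0.028 (median ratio) and 0.049 (quantile). In high calcium against TGFb3, LAMA5, LAMB1 and AGRN turned to -0.13, -0.26 and -0.26 (median ratio), to -0.11, -0.17 and -0.23 (quantile) and to -0.042, -0.17 and -0.17 (mitochondrial genes left out). Leaving out 1 sample gave ranges of -0.012 to 0.016 for LAMB1 and -0.18 to 0.10 for LAMA5 in high calcium against control, -0.071 to 0.013 for LAMB1 in TGFb3 against control, and -0.0094 to 0.075 for LAMB1 and -0.023 to 0.12 for AGRN in high calcium against TGFb3. Members called lower in high calcium against control numbered 2 after median ratio rescaling, 1 after quantile normalisation and 2 without mitochondrial genes, and those called higher in high calcium against TGFb3 numbered 1 under each of these. Members called lower in TGFb3 against control ranged from 0 (without TGFb3 2) to 2 (without control 2) when 1 sample was left out. Summed member TPM after median ratio rescaling was 1236.5 in high calcium, 3162 in TGFb3 and 659 in the controls. The cause of these changes was not tested. Median ratio rescaling moved the median of all genes in high calcium against control to 0.01, and 50.4% of calls were then higher, with 73.0% as deposited. The replicate numbers showed no sign of pairing in expression. Same-numbered samples had correlations of their deviations from -0.075 to -0.004, and in 0 of 18 cases did a sample correlate best with its own number. These values cannot exclude that same-numbered cultures were handled together. The fit with a replicate block changed 1 call, that of HSPG2 in high calcium against control (0.37, adjusted p = 0.057). TPM keeps no depth, so the precision of low values such as HSPG2 is unknown.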
